A study of Mus musculus with 6 samples.

Results

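The S100 calcium-binding proteins were followed in mouse dendritic cells, antigen-presenting cells that were grown here from bone marrow in DMEM with serum. The members were the 8 genes of the expression table named S100a1, S100a4, S100a6, S100a8, S100a9, S100a10, S100a11 and S100a13, taken by symbol from 23398 genes in all. Another 6 S100 genes of that table were below the filter used for testing and are described separately. Cells were kept for 12 hours with Ca(OH)2 nanoparticles (3 libraries) or with vehicle (3 libraries), and the labels give no strain, age, dose or particle size and do not say whether libraries came from separate animals or cultures. If they did not, the p-values measure only the spread between these libraries, which may be technical. Each library was made from 1 µg of total RNA.

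S100 proteins are small proteins of the EF-hand superfamily, so called after the helix-loop-helix fold that binds calcium, and most of them act as homodimers or heterodimers. Inside the cell, calcium opens a hydrophobic face that binds partners such as annexins and myosin, and outside the cell several of them act as alarm signals on myeloid cells through TLR4 and RAGE (encoded by Tlr4 and Ager). S100A8 and S100A9 pair as calprotectin, an abundant cytosolic protein of neutrophils and monocytes.

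Levels are given in FPKM, that is, fragments per kilobase of exon after division by a library scale. From 17285079 to 21980123 whole reads per library could be recovered from these values, and each value of the 8 members corresponded to a whole number of reads. All 8 members passed the filter of at least 1 FPKM in at least 3 libraries, which left 10682 genes, although S100a9 passed only through vehicle library 3 and nanoparticle libraries 2 and 3. Groups were compared with limma on log2(FPKM + 1), a scale that understates changes of low genes, with p-values adjusted by Benjamini and Hochberg over all 10682 genes and a threshold of 0.05. In this comparison 33.2% of all tested genes passed, 17.0% higher and 16.2% lower with nanoparticles, and 44.4% had an unadjusted p under 0.05. With libraries scaled by their recovered totals 4721 genes passed, 1108 higher and 3613 lower, in place of 3550 genes, 1817 higher and 1733 lower, a scaling under which the median gene stood at -0.28 on the log2 scale. Directions below are therefore relative to the deposited scale. Of the dendritic cell markers, Itgax (CD11c) was at 442 to 456 FPKM with vehicle and 248 to 398 FPKM with nanoparticles, and H2-Aa (an MHC class II chain) at 745 to 779 and 358 to 898 FPKM. Flt3, a marker of conventional dendritic cells, was at 0.0793 FPKM or less in every library.

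S100a8 was the member that rose with nanoparticles, and no member fell. It was 1 of 8 members to pass, beside 33.2% of all tested genes, and also 1 of 8 by unadjusted p (44.4% of tested genes) and under limma-voom on the recovered reads (33.6%). The groups did not overlap for 1 of 8 members, against 52.1% of tested genes. For 6 of 8 members nanoparticle library 1 lay below all vehicle libraries while nanoparticle libraries 2 and 3 lay above them, against 10.8% of tested genes. S100a9 is among the 6, although its place in library 1 is within counting error of vehicle libraries 1 and 2. With libraries scaled by recovered totals 2 of 8 members showed this pattern, against 6.04% of tested genes. The median log2 change of the 8 members was 0.07, against -0.0010 for all tested genes. With vehicle the family was led by S100a11 at 1142 ± 20.6 FPKM, which ranked 28th of the tested genes. S100a10 (311 ± 10.2), S100a1 (294 ± 28.4) and S100a6 (293 ± 5.12) followed with ranges that overlapped from one to the next. S100a13 (64.3 ± 1.503), S100a8 (34.9 ± 1.32), S100a4 (6.35 ± 1.88) and S100a9 (1.19 ± 0.397) came last, each below all libraries of the one before (all SD, n = 3). With nanoparticles S100a11 kept the first place at 1323 ± 228 FPKM (SD, n = 3), and S100a1, S100a8 and S100a9 stood 1 place higher in the order, above S100a10, S100a13 and S100a4, with ranges that overlapped those of the genes they passed. Summed over the 8 members, vehicle libraries held 2105 to 2182 FPKM, whereas nanoparticle libraries 1 to 3 held 1676, 2703 and 3130 FPKM.

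**Figure D1:**
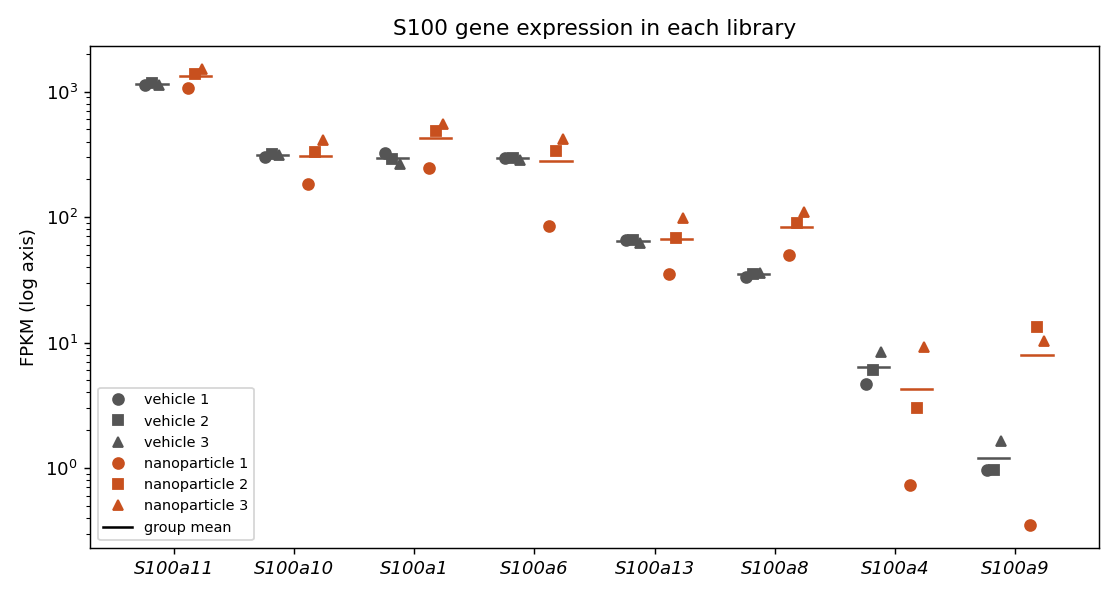
FPKM (log axis) of the 8 S100 genes in each of the 3 vehicle (grey) and 3 nanoparticle (orange) libraries, ordered by vehicle mean, with horizontal lines for group means. Vehicle points lie close together for all but S100a4 and S100a9, and nanoparticle library 1 (orange circles) is the lowest nanoparticle library for all 8 genes.

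All 8 genes lie on chromosome 3 (GENCODE M21, mouse build GRCm38), 6 of them between 90511034 and 90695721 and S100a11 and S100a10 between 93520488 and 93564643. The calprotectin genes S100a8 (ENSMUSG00000056054, plus strand, 90668978 to 90670035) and S100a9 (ENSMUSG00000056071, minus strand, 90692632 to 90695721) are neighbours that point toward each other. Their upstream bases are shown because they encode the partners of 1 complex yet were expressed at very different levels. The sequences are the 250 bases before the RefSeq start site on GRCm38.p6, 5′ to 3′ on each gene's own strand, from chr3:90668821-90669070 and chr3:90695722-90695971. Capitals mark matches to a TATA box (TATAAA, gene strand) or to a C/EBP motif (TTGCNNAA, either strand).
S100a8: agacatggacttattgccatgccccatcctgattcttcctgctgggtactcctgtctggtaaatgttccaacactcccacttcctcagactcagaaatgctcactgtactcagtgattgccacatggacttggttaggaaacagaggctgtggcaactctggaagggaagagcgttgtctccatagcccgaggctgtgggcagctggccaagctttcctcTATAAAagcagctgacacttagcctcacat
S100a9: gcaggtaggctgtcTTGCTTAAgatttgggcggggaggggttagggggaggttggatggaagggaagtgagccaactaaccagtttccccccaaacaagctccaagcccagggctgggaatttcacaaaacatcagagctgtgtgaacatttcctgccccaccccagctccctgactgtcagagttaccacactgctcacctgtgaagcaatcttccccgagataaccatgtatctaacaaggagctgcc
The TATA box of S100a8 begins 30 bases before the start, and 7.59% of 32851 promoter windows of this length hold one. The C/EBP match of S100a9 begins 236 bases before its start, and 9.56% of windows hold one. No match to an AP-1 (TGANTCA), NF-kappaB or STAT (TTCNNNGAA) motif on either strand was present in these windows, which 6.75%, 1.41% and 7.02% of windows hold. GENCODE places the start of S100a8 upstream of the RefSeq start, inside the window shown.

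S100a8, the smaller calprotectin subunit, was at 33.4, 35.3 and 36.0 FPKM with vehicle and at 50.1, 90.3 and 109 FPKM in nanoparticle libraries 1 to 3. All nanoparticle libraries lay above all vehicle libraries, as for 25.9% of tested genes in that direction. The group means were 34.9 ± 1.32 and 83.1 ± 30.03 FPKM (SD, n = 3 each). S100a8 thus rose by 1.16 on the log2 scale, with an SE of 0.281 (limma adjusted p = 0.0216). With read totals as scale the change was 0.82 and with equal FPKM sums 0.70, and it passed in both (limma adjusted p = 0.046 and 0.035). Without vehicle library 1, 2 or 3 or nanoparticle library 2, in turn, the change was 1.13, 1.17, 1.18 and 1.06 and no longer passed (limma adjusted p = 0.080, 0.074, 0.072 and 0.075). With no filter on low values the adjusted p was 0.051.

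S100a9, which carries the long tail of the complex, rested on few reads. It had 10, 10 and 18 reads in the vehicle libraries (0.962, 0.966 and 1.65 FPKM). Nanoparticle libraries 2 and 3 held 114 and 103 reads (13.2 and 10.2 FPKM), whereas nanoparticle library 1 held 3 reads (0.352 FPKM), with an exact 95% Poisson interval of 0.0726 to 1.03 FPKM that covers counting error only. The groups therefore overlapped, with library 1 below and libraries 2 and 3 above all vehicle libraries. That interval includes the values of vehicle libraries 1 and 2, so the place of library 1 below them is within counting error. The log2 change was 1.47 (SE 0.869, limma adjusted p = 0.246), and without nanoparticle library 1 it was 2.54 (SE 0.169, limma adjusted p = 4.0e-05). In that second fit 64.8% of all tested genes passed. It leaves out the nanoparticle library where S100a9 was low and keeps libraries 2 and 3, through which the gene passed the filter. Its p-value is therefore no separate support for a rise.

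The ratio of S100a8 to S100a9 FPKM was read within each library. With vehicle it was 34.7 (95% counting interval 18.7 to 73.0), 36.6 (19.7 to 76.7) and 21.8 (13.6 to 37.0). It was 142 in nanoparticle library 1 (95% counting interval 48.5 to 693, exact Clopper-Pearson) and 6.84 and 10.6 in nanoparticle libraries 2 and 3. In every library S100a8 thus exceeded its partner, least so in nanoparticle libraries 2 and 3, whose counting intervals (5.63 to 8.38 and 8.70 to 13.1) lay below all others, while that of nanoparticle library 1 overlapped those of vehicle libraries 1 and 2. The group means, 31.0 ± 8.07 and 53.3 ± 77.2 (SD, n = 3 each), did not differ beyond the spread (exact permutation test, two-sided, p = 1.0, adjusted p = 1.0 over 2 ratios). With 3 libraries against 3 this test cannot go below 0.1.

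Since calprotectin marks neutrophils, markers of that cell type were read beside it. Of 15 neutrophil markers, 4 passed the filter, and they did not share a pattern. Mmp8, a collagenase, fell from 230 to 259 FPKM with vehicle to 129, 133 and 129 FPKM in nanoparticle libraries 1 to 3 (limma adjusted p = 0.0017). Mmp9, a gelatinase, was at 9.41 to 10.1 FPKM with vehicle and at 9.33, 39.5 and 34.5 FPKM with nanoparticles and did not pass (limma adjusted p = 0.117). Lcn2, a secreted iron-scavenging protein, and Csf3r, the G-CSF receptor, were below 1 FPKM in every vehicle library and so entered the test only through the nanoparticle libraries, where they had to be higher. Lcn2 was at 0.146 to 0.346 FPKM with vehicle and at 52.3, 46.4 and 52.5 FPKM with nanoparticles. Csf3r was at 0.518 to 0.695 FPKM and at 4.90, 3.85 and 3.87 FPKM, highest in nanoparticle library 1. The summed level of the 15 markers, 243 to 273 FPKM with vehicle and 196 to 230 FPKM with nanoparticles, was mostly that of Mmp8. Reads of the defining markers were few in both groups, with 0 to 3 for Ly6g, 0 to 2 for Retnlg, 0 to 3 for Mpo and 0 to 5 for Elane. The granule gene Ngp, singled out after its values were seen, had 6, 11 and 23 reads with vehicle and 1, 87 and 76 in nanoparticle libraries 1 to 3. Camp, another granule gene singled out in the same way, had 1, 0 and 3 reads in vehicle and 3, 23 and 29 reads with nanoparticles. Cxcr2 and Padi4, also below the filter and singled out likewise, had fewer reads with nanoparticles. Cxcr2 had 24, 46 and 51 reads in vehicle and 1, 7 and 0 reads in nanoparticle libraries 1 to 3. Padi4 had 68, 45 and 38 reads in vehicle and 18, 18 and 27 reads with nanoparticles. Ngp, Camp and Mmp9 were thus higher in nanoparticle libraries 2 and 3 than in library 1, while Lcn2, Csf3r and Mmp8 were not, and the part of neutrophils in the S100a9 values was not tested. In bulk libraries such as these, fewer cells of a type and less RNA per cell cannot be told apart.

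**Figure D2:**
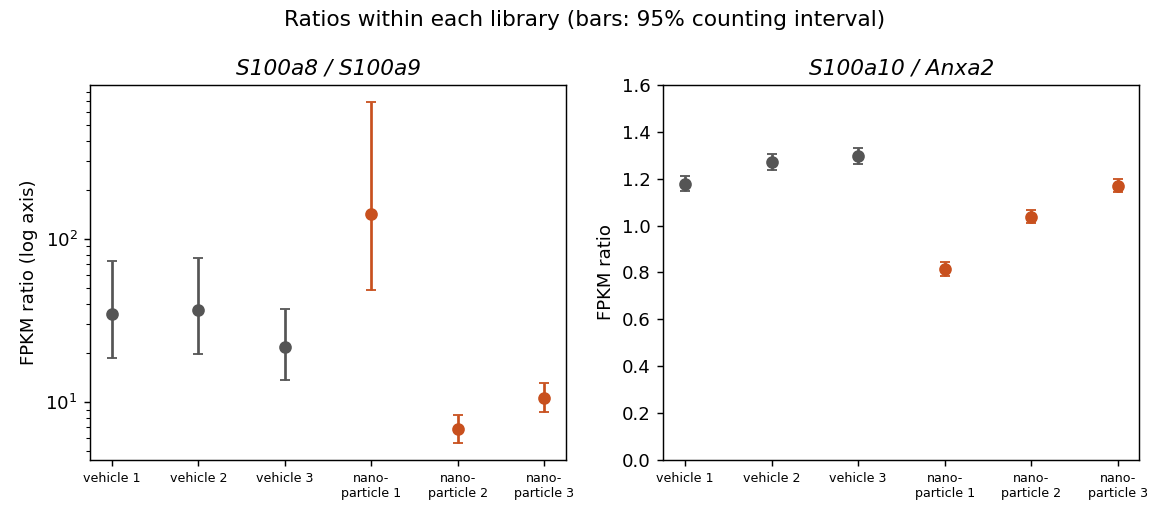
FPKM ratio of S100a8 to S100a9 (left, log axis) and of S100a10 to Anxa2 (right, linear axis from 0) in each library, vehicle grey and nanoparticle orange, with 95% counting intervals. The S100a8 to S100a9 ratio is 142 in nanoparticle library 1 and 6.84 and 10.6 in libraries 2 and 3, and the S100a10 to Anxa2 ratio is lower in all nanoparticle libraries than in any vehicle library.

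S100a10 and S100a11 bind annexins, membrane-binding proteins that themselves respond to calcium. S100a10 (ENSMUSG00000041959, plus strand, 93555080 to 93564643) encodes p11, an S100 protein that has lost calcium binding and forms a tetramer with annexin A2. It was at 299, 319 and 314 FPKM with vehicle and at 183, 330 and 409 FPKM in nanoparticle libraries 1 to 3. Library 1 lay below and libraries 2 and 3 above the vehicle range, and the log2 change was -0.09 (SE 0.298, limma adjusted p = 0.840). Its partner Anxa2 was at 242 to 254 FPKM in vehicle and at 224, 318 and 350 FPKM with nanoparticles (log2 change 0.23, limma adjusted p = 0.406), and 2.63% of its exon bases also lie in an antisense gene.

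The ratio of S100a10 to Anxa2 FPKM was 1.18, 1.27 and 1.30 with vehicle and 0.816, 1.04 and 1.17 with nanoparticles. The groups did not overlap, by a narrow margin between 1.17 and 1.18. The 95% counting intervals of those 2 libraries overlapped, at 1.14 to 1.20 and 1.15 to 1.21. The means were 1.25 ± 0.0620 and 1.01 ± 0.179 (SD, n = 3 each), with the smallest p that this design allows (exact permutation test, two-sided, p = 0.1, adjusted p = 0.2 over 2 ratios).

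S100a11 (ENSMUSG00000027907, plus strand, 93520488 to 93526287), which binds annexin A1, varied least with nanoparticles. It was at 1132, 1166 and 1130 FPKM in vehicle and at 1074, 1374 and 1522 FPKM with nanoparticles, again with library 1 below and libraries 2 and 3 above the vehicle range (log2 change 0.20, SE 0.184, limma adjusted p = 0.458). Its level is uncertain, since 5 processed pseudogenes matched its transcripts at 90% identity or more, the closest being Gm12854 (99.0% over 297 bases) and Gm7665 (98.7% over 297 bases). These 2 were listed at 14.2 to 26.0 and 40.6 to 61.2 FPKM over the 6 libraries, far below S100a11 itself. Anxa1 was at 791 to 804 FPKM in vehicle and at 392, 679 and 769 FPKM with nanoparticles (log2 change -0.44, limma adjusted p = 0.265).

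S100a6 and S100a4 were the members with the lowest nanoparticle library 1 relative to the vehicle mean, at -1.77 and -2.05 on the log2(FPKM + 1) scale. S100a6 (ENSMUSG00000001025, plus strand, 90612882 to 90624181) encodes calcyclin, which binds the ubiquitin ligase adaptor CACYBP and the co-chaperone SUGT1. It was at 296, 296 and 287 FPKM in vehicle, a CV of 1.75%, and at 85.6, 339 and 421 FPKM in nanoparticle libraries 1 to 3. Nanoparticle libraries 2 and 3 averaged 4.44 times library 1, so that the log2 change of -0.35 had an SE of 0.579 (limma adjusted p = 0.687). The genes of both partners rose in all nanoparticle libraries. Cacybp rose from 20.7 to 24.2 FPKM in vehicle to 33.0 to 44.3 FPKM (log2 change 0.74, SE 0.138, limma adjusted p = 0.0081). Sugt1 rose from 5.67 to 6.60 FPKM to 8.37 to 10.9 FPKM (log2 change 0.59, SE 0.123, limma adjusted p = 0.0120). The Sugt1 call was lost with read totals as scale (0.29, limma adjusted p = 0.086), with equal FPKM sums (0.18, limma adjusted p = 0.19) and without vehicle library 1 or 3 (limma adjusted p = 0.059 and 0.064), and that of Cacybp with equal FPKM sums (0.29, limma adjusted p = 0.063).

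S100a4 (ENSMUSG00000001020, plus strand, 90603771 to 90606045) encodes a partner of non-muscle myosin linked to cell motility. It had 54, 70 and 102 reads in vehicle (4.64, 6.05 and 8.37 FPKM) and 7, 29 and 103 reads with nanoparticles (0.734, 3.001 and 9.15 FPKM). Nanoparticle libraries 1 and 2 lay below the vehicle range and library 3 above it (log2 change -0.80, SE 0.614, limma adjusted p = 0.365), and without library 3 the change was -1.45 (limma adjusted p = 0.048). Of its 584 exon bases, 302 also belong to the overlapping gene Gm42674 on the same strand in GENCODE M21, and how the authors treated reads in such overlaps is not given in the sources used here. The level of S100a4 is therefore uncertain. Myh9, the non-muscle myosin heavy chain it binds, fell from 98.5 to 101 FPKM to 57.6 to 73.5 FPKM (log2 change -0.57, SE 0.128, limma adjusted p = 0.0164). This call was lost without vehicle library 1, 2 or 3 (limma adjusted p = 0.076, 0.074 and 0.075).

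S100a1 and S100a13 start head to head on opposite strands. S100a1 (ENSMUSG00000044080, minus strand, 90511034 to 90514392) encodes the founding member, best known as a calcium sensor of muscle, and S100a13 (ENSMUSG00000042312, plus strand, 90514435 to 90524581) encodes a protein that takes part in the release of IL-1α and FGF1, which lack a signal sequence. The 104 bases between their RefSeq start sites (GRCm38.p6, chr3:90514331-90514434, plus strand) are shown as the stretch between both starts, although GENCODE places the start of S100a1 inside it, at 90514392. They hold no match to the motifs above, so there are no capitals.
S100a1-S100a13 gap: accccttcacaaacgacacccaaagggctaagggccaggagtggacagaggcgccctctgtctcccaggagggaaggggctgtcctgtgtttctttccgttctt
S100a1 was at 323, 293 and 266 FPKM in vehicle and at 247, 486 and 552 FPKM in nanoparticle libraries 1 to 3. S100a13 was at 65.2, 65.1 and 62.6 FPKM in vehicle and at 35.3, 67.7 and 97.9 FPKM with nanoparticles. For both genes library 1 was the lowest of all 6 libraries and libraries 2 and 3 the highest.

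The log2 change was 0.46 for S100a1 (SE 0.314, limma adjusted p = 0.307) and -0.06 for S100a13 (SE 0.349, limma adjusted p = 0.915). S100a1 moved further upward than S100a13 in libraries 2 and 3, at 0.73 and 0.91 above the vehicle mean on the log2 scale against 0.07 and 0.60, a difference that was not tested. Of the cargo of S100A13, Fgf1 was at 0.0395 FPKM or less in every library, whereas Il1a rose from 11.3 to 12.3 FPKM to 3426, 1607 and 1331 FPKM in nanoparticle libraries 1 to 3 (log2 change 7.24, SE 0.347, limma adjusted p = 8.1e-05). Il1a was thus highest in the library where S100a13 was lowest. That library was, however, the lowest of all libraries for 7 members and for 32.5% of tested genes. A link between Il1a and S100a13 was not tested.

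**Figure D3:**
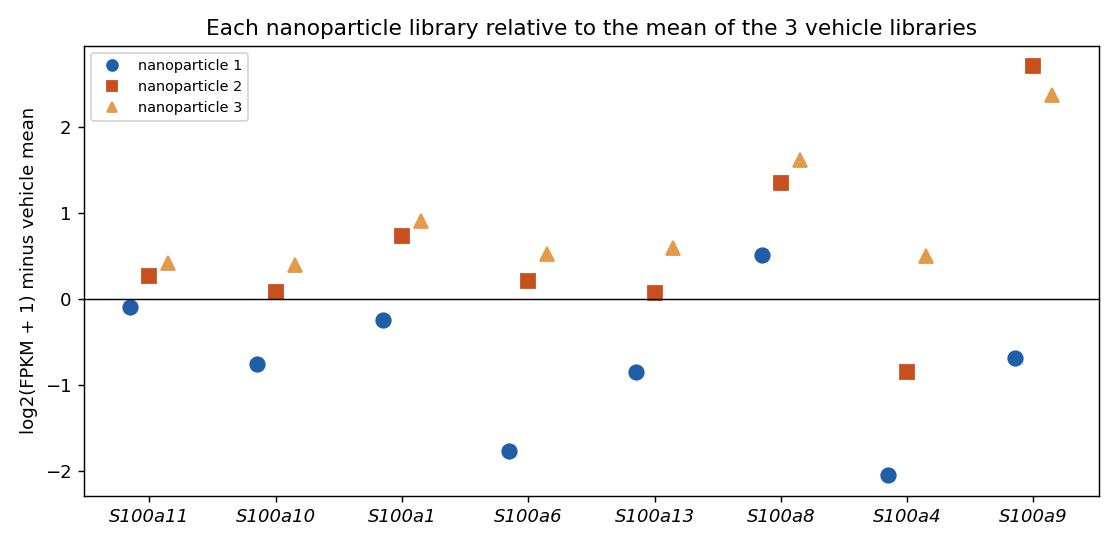
Difference of each nanoparticle library from the mean of the 3 vehicle libraries on the log2(FPKM + 1) scale, for the 8 S100 genes in order of vehicle mean. Library 1 (blue circles) is below 0 for all genes except S100a8, while libraries 2 and 3 are above 0 for all genes except S100a4 in library 2.

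The 3 nanoparticle libraries were also compared with each other, gene by gene. Library 1 was the lowest of all 6 libraries for 7 of 8 members, against 32.5% of tested genes, and libraries 2 and 3 lay above every vehicle library for 7 of 8, against 40.1%. For 6 of 8 members it lay below all vehicle libraries while libraries 2 and 3 lay above them, a pattern found for 10.8% of tested genes, and the mirror image, found for 8.23%, occurred in 0 members. On the log2(FPKM + 1) scale, library 1 was more than 2-fold below the mean of libraries 2 and 3 for 6 of 8 members (S100a1, S100a4, S100a6, S100a9, S100a10 and S100a13), against 7.28% of tested genes. The median of that difference was -1.13 over the members and -0.03 over all tested genes. These counts describe 1 library and carry no test. Those against the vehicle libraries include S100a9, whose place below vehicle libraries 1 and 2 in library 1 is within counting error.

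With libraries scaled by recovered totals, 5 of 8 members were more than 2-fold lower in library 1 (6.28% of tested genes), with a median difference of -1.07, and library 1 was the lowest of the 6 for 7 of 8 (37.2% of tested genes). The pattern on both sides of the vehicle range was then seen in 2 of 8 (6.04% of tested genes). The CV of the members had a median of 3.54% in vehicle and 42.1% with nanoparticles, against 5.73% and 21.9% over all tested genes.

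Without nanoparticle library 1, 5 of 8 members passed and all 5 were higher, beside 64.8% of all tested genes, 34.3% higher and 30.5% lower. These were S100a8 (log2 change 1.48, SE 0.0869), S100a9 (2.54, SE 0.169), S100a1 (0.82, SE 0.0961, limma adjusted p = 4.5e-04), S100a11 (0.34, SE 0.0616, limma adjusted p = 0.0031) and S100a6 (0.36, SE 0.0918, limma adjusted p = 0.013). Of these, S100a9 had entered the test only through vehicle library 3 and nanoparticle libraries 2 and 3. S100a10 (0.24), S100a13 (0.34) and S100a4 (-0.17) did not pass. The calls of S100a6 and S100a11 rested on the deposited scale, since with libraries scaled by recovered totals their changes were 0.0024 and -0.02, and 3 of 8 members passed in that fit, beside 69.5% of tested genes (18.4% higher). S100a1 (0.46), S100a8 (1.13) and S100a9 (2.27) were those 3.

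**Figure D4:**
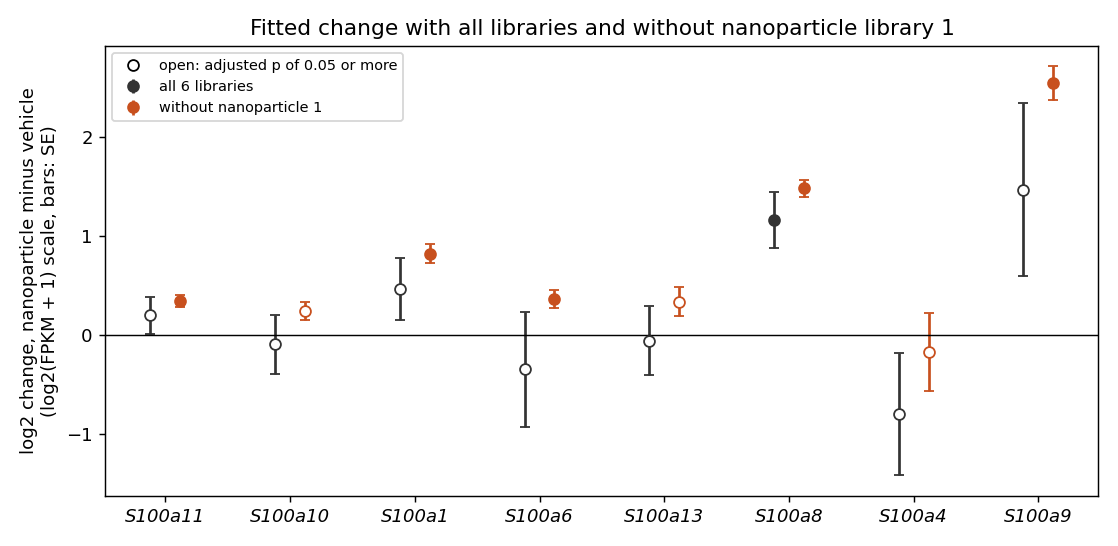
Fitted log2 change (nanoparticle minus vehicle, log2(FPKM + 1) scale) with its SE for the 8 S100 genes, with all 6 libraries (dark) and without nanoparticle library 1 (orange), filled where the limma adjusted p is under 0.05. S100a8 alone is filled with all libraries, and S100a11, S100a1, S100a6, S100a8 and S100a9 are filled without library 1.

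Receptors for extracellular S100 proteins were read from a list of 11 genes, of which 9 were tested, with a median log2 change of 0.04. Of these, 3 rose and 0 fell, beside 33.2% of all tested genes. Tlr4, the receptor of calprotectin, was at 13.5, 14.9 and 14.7 FPKM in vehicle and at 20.6, 11.9 and 13.3 FPKM with nanoparticles and did not pass (log2 change 0.04, limma adjusted p = 0.888). Its co-receptors rose. Cd14 went from 57.7 to 63.4 FPKM to 645, 473 and 475 FPKM (log2 change 3.11, SE 0.160, limma adjusted p = 9.2e-05). Ly96, which encodes the TLR4 partner MD-2, went from 5.21 to 6.38 FPKM to 13.4, 10.5 and 11.9 FPKM (log2 change 0.96, SE 0.127). Bsg, which encodes basigin, a receptor of S100A9, rose by 0.59 on the log2 scale (SE 0.108, limma adjusted p = 0.0075), a call lost with read totals as scale (0.25, limma adjusted p = 0.095), with equal FPKM sums (0.12, limma adjusted p = 0.38) and without vehicle library 2 or 3 (limma adjusted p = 0.052 and 0.059). Ager, which encodes RAGE, had 5 to 15 reads per library and was at 0.364 FPKM or less, below the filter.

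Among 17 genes of intracellular partners, 15 were tested, with a median log2 change of -0.16. Of these, 4 rose (Il1a, Cacybp, Anxa5 and Sugt1) and 2 fell (Myh9 and Iqgap1), beside 33.2% of all tested genes. Anxa5, an annexin that binds phosphatidylserine, rose from 304 to 307 FPKM to 458, 627 and 663 FPKM (log2 change 0.91, SE 0.176, limma adjusted p = 0.0093). Anxa1, Anxa2, Anxa6 and Anxa11 did not pass, Anxa6 narrowly (log2 change -0.30, limma adjusted p = 0.0531). Anxa1 and Anxa6 were lower in all nanoparticle libraries than in any vehicle library, as were 26.2% of tested genes. Without nanoparticle library 1, Anxa2 passed as higher (0.42, limma adjusted p = 0.0011). Anxa6 (-0.29) and Anxa11 (-0.36) passed as lower in that fit (limma adjusted p = 0.0045 and 0.047), and Anxa1 did not pass. The annexins listed thus went in both directions. Without vehicle libraries 1, 2 and 3 in turn, 3, 3 and 2 of these 15 genes passed, in fits where 2226, 2188 and 2141 of the 10682 tested genes did. Without nanoparticle library 1, 12 passed, 6 in each direction, beside 64.8% of all tested genes. The Anxa5 call was lost without vehicle library 2 or 3 (limma adjusted p = 0.051 in both), and that of Iqgap1 without any one vehicle library or nanoparticle library 2 or 3 (limma adjusted p from 0.065 to 0.13).

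Of 26 other EF-hand genes, 24 were tested, 4 rose and 0 fell, beside 33.2% of all tested genes. Their median log2 change was 0.14. Ehd1, an endosomal recycling ATPase, rose from 40.7 to 41.6 FPKM to 211 to 233 FPKM (log2 change 2.40, SE 0.103). Sorcin (Sri, log2 change 0.77), reticulocalbin 1 (Rcn1, 0.75) and peflin (Pef1, 0.64) rose by less. Without nanoparticle library 1, 16 of the 24 passed, 13 higher and 3 lower, beside 64.8% of all tested genes. Of the 24, 6 showed library 1 below and libraries 2 and 3 above the vehicle range, a pattern of 10.8% of all tested genes. The Pef1 call was lost with equal FPKM sums (0.19, limma adjusted p = 0.11).

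**Figure D5:**
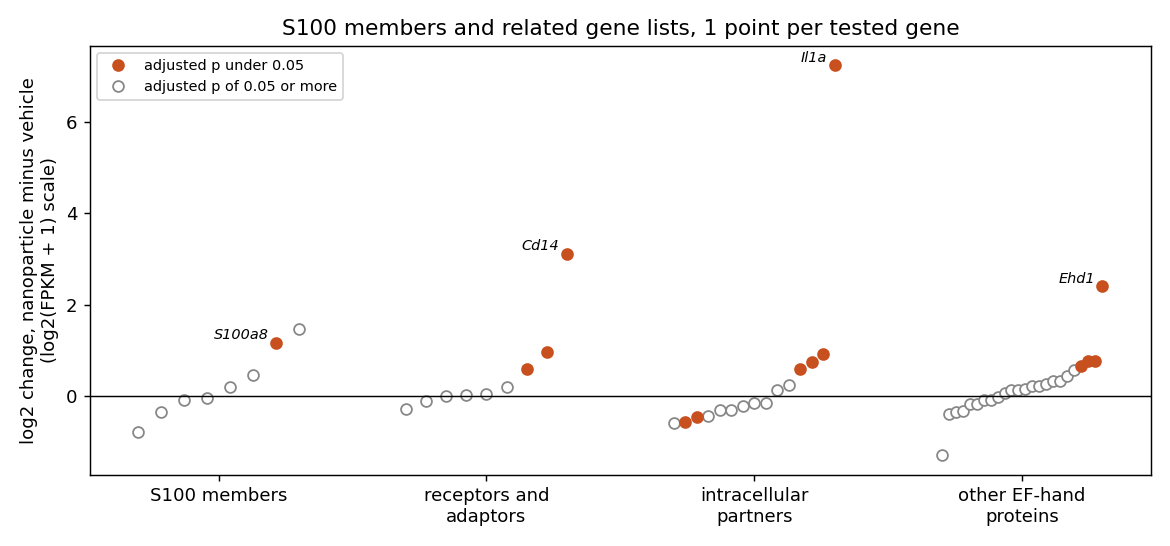
Fitted log2 change (nanoparticle minus vehicle, log2(FPKM + 1) scale) of each tested gene, ordered within the 8 S100 genes, the receptors and adaptors, the intracellular partners and the other EF-hand genes, orange where the limma adjusted p is under 0.05. One S100 gene is orange, as are 3 of 9 receptors and adaptors, 6 of 15 partners and 4 of 24 other EF-hand genes. Over all tested genes the share was 33.2%.

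Further genes of the family were near the limit of detection. S100a3, S100a14, S100b and S100g had 0 to 5 reads in each library, and S100a7a had 0, 4 and 2 reads in vehicle and 0, 4 and 5 with nanoparticles. S100a5 had 2 reads in each vehicle library and 0, 2 and 10 reads in nanoparticle libraries 1 to 3. Of 17 further S100 and S100-fused genes listed for comparison, 10 were analysed here. The one to pass the filter, the S100-fused gene Tchh, had 365 to 432 reads with vehicle and 168 to 289 with nanoparticles, groups that did not overlap (log2 change -0.43, limma adjusted p = 0.053). It passed without nanoparticle library 1 (-0.30, limma adjusted p = 0.020).

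Genes next to the S100 cluster were also read, to see whether the chromosomal region moved with its members. Within 100000 bases of a member, 5 genes outside the S100a series were tested, 1 was higher and 0 lower, beside 33.2% of all tested genes. In 0 of them did library 1 lie below and libraries 2 and 3 above the vehicle range, a pattern of 10.8% of all tested genes. Without nanoparticle library 1, 1 was higher and 2 lower, beside 64.8% of all tested genes. With shares of this size, 5 genes are too few to tell whether the region moved. Chtop, an mRNA export factor and the nearest of them, 1536 bases from S100a1, was at 16.6 to 18.2 FPKM in vehicle and at 20.4, 24.9 and 24.1 FPKM with nanoparticles (log2 change 0.37, limma adjusted p = 0.0489). That call was lost without any one library other than nanoparticle library 1 (limma adjusted p from 0.11 to 0.18) and with read totals as scale (0.04, limma adjusted p = 0.80), and the change was -0.08 with equal FPKM sums. Near S100a11 and S100a10 the only such gene was Tchh, itself S100-fused, 71411 bases before S100a11. No tested gene outside the S100a series lay within 100000 bases after S100a9 or after S100a10.

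Marker lists of other cells were read for the same libraries. Monocyte and macrophage markers went both ways, with 4 higher and 3 lower of 9 tested, beside 33.2% of all tested genes. Mrc1 was among the lower ones, at a log2 change of -2.84, and Ly6c2, Fcgr1, Adgre1 and Cd68 were higher. Ly6c2 was at 1.26 to 2.15 FPKM in vehicle and at 4.72, 18.3 and 21.3 FPKM in nanoparticle libraries 1 to 3 (limma adjusted p = 0.0156). Fcgr1, Adgre1 and Cd68 were instead highest in nanoparticle library 1. The summed level of the list was 688 to 700 FPKM in vehicle and 1120, 861 and 856 FPKM in nanoparticle libraries 1 to 3. Dendritic cell markers summed to 1273 to 1300 FPKM in vehicle and to 685, 1269 and 1335 FPKM with nanoparticles. Beside 33.2% of all tested genes, 1 was higher (Irf8, log2 change 1.19) and 4 were lower of 8 tested. One of these 4, Cd209a, which marks monocyte-derived dendritic cells, passed the filter only through the vehicle libraries (5.17 to 6.21 FPKM) and was at 0, 0.0763 and 0 FPKM in nanoparticle libraries 1 to 3. The low sum of nanoparticle library 1 came mostly from Itgax and H2-Aa, whereas Irf8 (24.1, 21.1 and 18.4 FPKM in nanoparticle libraries 1 to 3) and Irf4 (44.7, 32.5 and 29.9 FPKM) were highest there. What part the makeup of the culture has in the S100 values was not tested. Of 3 tested mast cell and basophil markers 1 fell (Gata2, a call lost without vehicle library 2 or 3), beside 33.2% of all tested genes passing. The sum of the list was 3.73 to 5.78 FPKM with vehicle and 1.99 to 4.11 FPKM with nanoparticles. Of stromal and epithelial markers 1 was tested, Epcam, which passed the filter only through the vehicle libraries (2.19 to 4.55 FPKM) and was at 0.0300, 0.444 and 0.661 FPKM with nanoparticles. The sum of these markers was 2.23 to 4.55 and 0.120 to 0.661 FPKM. Lymphocyte markers summed to 0.496 FPKM or less in every library, with 0 of 7 above the filter.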

How the data were processed

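RNA sequencing of 3 vehicle and 3 nanoparticle libraries of bone marrow-derived dendritic cells was used, with groups and replicate numbers taken from the sample titles. The submitters' processing notes name CASAVA, STAR 2.5, HTSeq, edgeR 3.16.5, DESeq2 and the builds hg19 and mm10, without their roles. The values deposited by the authors were treated as FPKM, a unit inferred from the values. A second deposited table, named for read counts, held identical values (140388 of 140388) and was read for that comparison alone. With merged exon lengths of GENCODE M21 and 1 scale per library, 95.8% to 96.1% of values above 0 became whole reads (within 0.01), and the scales equalled median-of-ratios size factors of those reads, so the deposited FPKM already carry such a scaling, which assumes that most genes do not change. For 771 genes a fitted length was used.

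limma 3.58.1 (R 4.3.3) was fitted to log2(FPKM + 1) for the 10682 genes reaching 1 FPKM in 3 or more libraries, with group as the single term and a mean-variance trend. The fit was tested on simulated data, where 85 of 98 genes changed 2-fold and 19 of 10372 unchanged genes were called for the simulated comparison of vehicle with nanoparticle. Both groups were simulated from vehicle means with the same spread and no divergent library. In the data the median CV of tested genes was 5.73% in vehicle and 21.9% with nanoparticles. The simulated rates therefore do not carry over to this comparison. Ratios were compared with exact permutation tests (scipy 1.17.1, Python 3.11.15). Near-identical transcripts were sought with blastn 2.17.0, and promoter sequences came from RefSeq (GRCm38.p6), with entries for 7 of 8 members. The alternatives were other pseudocounts, filters and scalings, no trend, a replicate block, each library left out in turn and, added after seeing the data, limma-voom on recovered reads and library 1 left out together with scaling by read totals.

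The members and the gene lists (further S100 genes, receptors and adaptors, intracellular partners, other EF-hand proteins and markers of neutrophils, monocytes and macrophages, dendritic cells, mast cells and basophils, lymphocytes, and stromal and epithelial cells) were chosen with earlier results of these data known. Named genes are all members, the genes of the ratios, the nearest tested neighbours, and per list up to 4 (markers, 2) genes past the threshold with the smallest adjusted p, and others are named after their values were seen (Tlr4, Ager, Anxa1, Anxa6, Anxa11, Myh9, Iqgap1, Fgf1, Mmp8, Mmp9, Ngp, Camp, Irf4, Itgax, H2-Aa and further markers). Some genes that the rule would name are not reported here.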

Additional observations from a re-analysis of the deposited data

How the results depend on the processing

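With 1 library left out in turn, 0 to 5 members passed in place of 1, over 2141 to 7423 genes in all (1114 to 3660 higher), the upper ends without nanoparticle library 1 (7423 with read totals as scale, 6923 without). Without that library 12 partners, 16 other EF-hand genes and 6 dendritic cell markers passed. Across these fits log2 changes ran from 0.24 to 0.82 for S100a1, -1.45 to -0.17 for S100a4, -0.78 to 0.36 for S100a6, 0.93 to 1.48 for S100a8, 0.84 to 2.54 for S100a9, -0.34 to 0.24 for S100a10, -0.022 to 0.34 for S100a11 and -0.39 to 0.34 for S100a13. The sign of S100a6 (0.36, or 0.0024 with read totals as well), S100a10 (0.24) and S100a13 (0.34) turned without nanoparticle library 1, the last 2 not with read totals as well (-0.12 and -0.02), and that of S100a11 (-0.022) turned when read totals were used as well, where S100a1 and S100a9 passed at 0.46 and 2.27. S100a11 ran from 0.089 to 0.34 on the deposited scale. Counts of called genes ran from 0 to 1 for further S100 genes, 2 to 7 for receptors and adaptors, 2 to 13 for partners, 4 to 18 for other EF-hand genes, 4 to 9 for markers of monocytes and macrophages, 3 to 8 of dendritic cells and 0 to 2 of mast cells and basophils. The mean S100a8 to S100a9 ratio was 22.3 higher with nanoparticles and 22.3 lower (-22.3) without library 1, and the differences ran from -22.3 to 45.5. The cause was not tested.

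With no filter, 0 members passed, S100a8 missing the threshold at an unaltered 1.16, with more genes tested. In that fit 3 markers of dendritic cells and 0 of mast cells and basophils passed. With read totals and with equal FPKM sums the change was 0.12 and -0.01 (-0.0058) for S100a1, 0.82 and 0.70 for S100a8, -0.69 and -0.82 for S100a6, -0.44 and -0.56 for S100a10, -0.40 and -0.52 for S100a13, -0.15 and -0.27 for S100a11, -0.12 and -0.24 for Anxa2 and 0.04 and -0.08 (-0.0825) for Chtop, and the summed level of the members was 440 FPKM lower (-440.1) with equal FPKM sums, scalings that move the median of all genes to -0.28 and -0.38. They gave 1108 and 881 higher genes, 10 and 10 other EF-hand genes, 1 and 1 further S100 gene and 2 and 2 mast cell and basophil markers, and read totals gave 10 partners. Further S100 genes numbered 1 and mast cell and basophil markers 2 under limma-voom, the former also 1 with a pseudocount of 5 FPKM, and a filter at 5 FPKM left 0 mast cell and basophil and 0 stromal and epithelial markers. Same-numbered libraries were not treated as paired, and the labels do not say whether they were. Correlations of their deviations were 0.0654, 0.1133 and -0.0577, against -0.1289 to 0.1077 for differently numbered libraries. With 3 libraries a group these values cannot exclude a pairing. With the replicate block 1 member passed, S100a8 at 1.16 (limma adjusted p = 0.025), over 2785 genes in all, and the calls of Bsg, Myh9, Iqgap1 and Chtop were lost (limma adjusted p = 0.052, 0.055, 0.087 and 0.099). Depth limits S100a9 and S100a4, which rest on as few as 3 and 7 reads.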
